A study of Mus musculus with 37 samples.

Results

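Astrocytes of the cortex are joined into a network by gap junctions, and 5 genes of that network were followed here: Gja1, Gjb6 and Gjb2, which encode connexin 43, connexin 30 and connexin 26, Panx1, which encodes pannexin 1, and Tjp1, which encodes the scaffold protein ZO-1. They were chosen by name and matched through their Ensembl identifiers to 5 of the 21975 genes in the deposited tables. Expression was measured in astrocytes isolated from the cortex 4 months after controlled cortical impact (CCI), a blunt injury of 1 side of the brain, or after sham surgery. Injured mice were sorted by continuous video EEG into those that developed post-traumatic epilepsy (PTE+) and those that did not (PTE-). The ipsilateral cortex gave libraries from 5 sham, 10 PTE- and 4 PTE+ mice, and the contralateral cortex from 5 sham, 9 PTE- and 4 PTE+ mice. These 37 libraries came from 20 mice, of which 17 gave both hemispheres (5 sham, 9 PTE- and 3 PTE+).

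All mice were wild type males, named CD1 in the methods of the study and CD31 in the sample labels, with no engineered allele named, and their age at surgery was not given in the sources used here. Every mouse, sham included, had a craniectomy, recording electrodes and an EEG recording in months 2 to 4, so the sham cortex was operated cortex and not intact cortex. CCI mice received in addition a severe impact to the right parietal cortex, so ipsilateral is the right side. The cells were enriched with magnetic beads against ACSA-2, a surface antigen of astrocytes. In these bulk values fewer cells of a type and less RNA per cell cannot be told apart.

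A connexin hexamer forms a hemichannel, and hemichannels of neighbouring cells dock to form a gap junction that passes ions and small metabolites. In astrocytes this coupling is carried by connexin 43 and connexin 30, which spread potassium, glutamate breakdown products and glucose through the network, while pannexin 1 forms channels that release ATP and do not dock. ZO-1 binds the carboxyl terminus of connexin 43 and anchors it at the edge of gap junction plaques.

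On the mouse genome build GRCm38, Gja1 (ENSMUSG00000050953) lies on the plus strand of chromosome 10 from 56377330 to 56402513. Gjb2 (ENSMUSG00000046352) and Gjb6 (ENSMUSG00000040055) are neighbours on the minus strand of chromosome 14, from 57098600 to 57104702 and from 57123303 to 57133611, with 18600 bases between them. Panx1 (ENSMUSG00000031934) lies on chromosome 9 from 15002128 to 15045478 and Tjp1 (ENSMUSG00000030516) on chromosome 7 from 65296165 to 65527781, both on the minus strand. Values of these genes were for whole genes, over all their exons.

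The 250 bases before the RefSeq start of each connexin gene (build GRCm38.p6) are shown because the neighbours Gjb6 and Gjb2 had levels far apart, as given below. Capitals mark matches to an AP-1 site (TGANTCA) or a GC box (GGGCGG), searched on both strands. No match of one motif overlapped a match of the other.
Gja1, chr10:56377050-56377299, plus strand: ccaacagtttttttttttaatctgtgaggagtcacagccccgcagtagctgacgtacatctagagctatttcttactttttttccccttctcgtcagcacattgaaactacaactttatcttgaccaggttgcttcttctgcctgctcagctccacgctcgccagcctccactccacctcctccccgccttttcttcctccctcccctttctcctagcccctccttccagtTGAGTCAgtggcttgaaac
Gjb6, chr14:57133612-57133861, minus strand: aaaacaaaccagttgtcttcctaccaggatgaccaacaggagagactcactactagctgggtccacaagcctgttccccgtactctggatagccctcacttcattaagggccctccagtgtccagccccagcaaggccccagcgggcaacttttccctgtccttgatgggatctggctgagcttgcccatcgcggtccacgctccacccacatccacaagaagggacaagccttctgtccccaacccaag
Gjb2, chr14:57104703-57104952, minus strand: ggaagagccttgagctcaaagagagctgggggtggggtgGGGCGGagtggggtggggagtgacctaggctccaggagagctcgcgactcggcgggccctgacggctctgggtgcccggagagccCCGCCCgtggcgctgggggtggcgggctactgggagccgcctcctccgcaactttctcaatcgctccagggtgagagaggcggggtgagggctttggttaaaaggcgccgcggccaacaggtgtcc
Gja1 held 1 AP-1 site, which began 19 bases before the start, and 0 GC boxes. Gjb6 held 0 matches of either kind. Gjb2 held 2 GC boxes and 0 AP-1 sites. Of 32851 RefSeq promoter windows of the same length, 6.75% held an AP-1 site and 32.74% a GC box. Gjb2 also had 18 CG pairs and 69.2% G or C, against 5 pairs and 56.8% in Gjb6, 6 pairs in Gja1, and a median of 6 pairs over all windows. A match describes letters in the window and not a bound factor.

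Levels are given as TPM, transcript abundances corrected for length and scaled to 1 fixed total in every library, so that genes can be compared within a library. The 5 genes fell into 3 ranges. Gja1 had a mean of 1968 TPM over the 37 libraries (1410 to 3187), rank 46 among all genes, and Gjb6 had 1058 TPM (705 to 1508), rank 87. Tjp1 with 20.6 TPM (11.35 to 35.49) and Gjb2 with 18.6 TPM (5.41 to 39.11) overlapped each other. Panx1 was lowest, with 2.58 TPM (0 to 5.41).

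No library of Gjb6 overlapped Gjb2, and the ratio of the 2 neighbours had a median of 58.4 (21.98 to 137). Connexin 43 transcripts made up 64.2% ± 5.52 (SD, n = 37) of the 3 connexins, connexin 30 transcripts 35.2% ± 5.56 and connexin 26 transcripts 0.617% ± 0.221. The ratio of Gja1 to Gjb6 lay between 1.04 and 2.98, so that Gja1 was the higher of the pair in each of the 37 libraries. Of the 10445 stretches of 50 bases in the transcripts of Gja1, 12 (0.11%) also occur in transcripts of other genes. For the other 4 genes this number was 0.

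Of 16 other connexin genes and 2 other pannexin genes analysed, 6 had a mean above 1 TPM in at least 1 group. Gja4 (connexin 37) had 38.4 TPM (13.76 to 121) and Gjc1 (connexin 45) 27.2 TPM (12.04 to 56.8), both above Gjb2 and Tjp1 in mean level. Connexin 37 and connexin 45 are known from the walls of blood vessels. Gjb1 (connexin 32) with 4.72 TPM and Gjc3 (connexin 29) with 4.88 TPM are connexins of oligodendrocytes and other myelinating glia. Panx2 had 4.25 TPM, and Gja5 (connexin 40), an endothelial connexin, had 1.49 TPM. The other 12 genes stayed under 1 TPM in every group, with 0.77 TPM as the highest value in a single library.

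**Figure D1:**
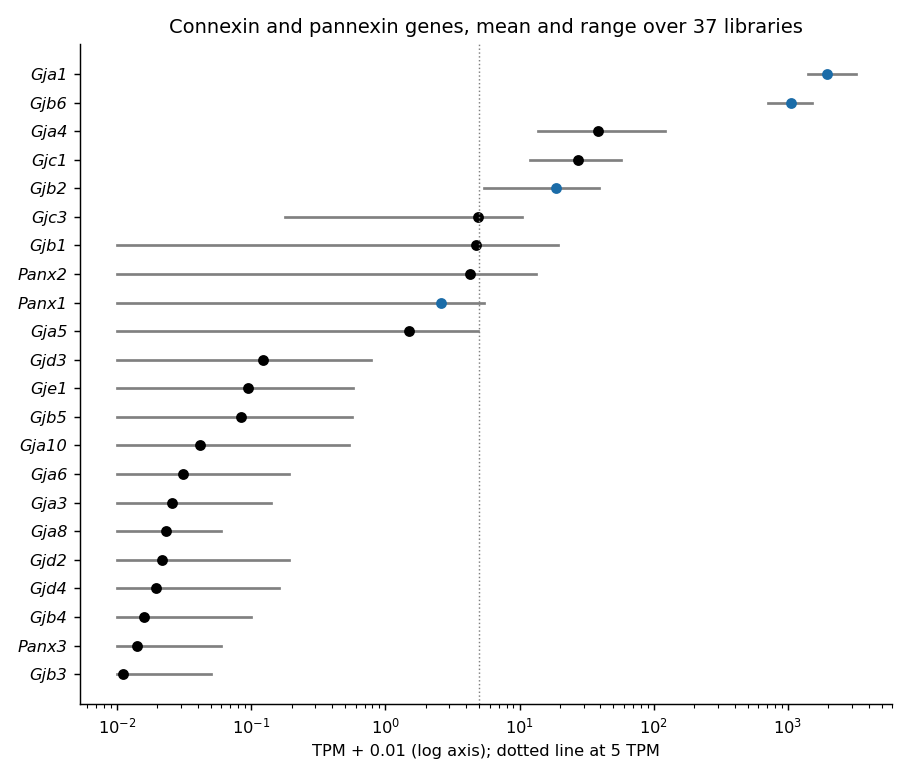
Mean (point) and range (line) over the 37 libraries of Gja1, Gjb6, Gjb2 and Panx1 (blue) and of the 18 other connexin and pannexin genes (black), in TPM + 0.01 on a log axis, with a dotted line at 5 TPM. Gja1 and Gjb6 stand apart near 1968 and 1058 TPM, Gja4, Gjc1 and Gjb2 follow, and 12 genes lie under 1 TPM.

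Astrocyte markers led in every library. The summed level of 13 astrocyte marker genes ranged from 17528 to 24653 TPM over the libraries. Every other marker list was lower, and no gene of these lists was at 0 in every library of a group. The 12 oligodendrocyte markers summed to 527 to 4491 TPM, the 10 mural cell markers to 803 to 5124 TPM and the 12 endothelial markers to 365 to 2817 TPM. The 12 meningeal and fibroblast markers summed to 184 to 841 TPM, the 12 neuron markers to 52.4 to 944 TPM and the 12 microglia markers to 120 to 903 TPM. The 6 ependymal markers summed to 204 to 983 TPM and the 8 oligodendrocyte precursor markers to 20.4 to 177 TPM. The ipsilateral library of PTE- mouse 9_14 stood apart, with 10727 genes above 0 TPM against 15599 to 18534 in the other 36 libraries, and a median correlation of 0.739 with its group against 0.894 to 0.971.

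The study asked which astrocyte genes differ after injury and between injured mice with and without epilepsy. A gene was called, by the thresholds of the study, where its unadjusted limma p was under 0.05 and its fold 1.2 or more in either direction, among genes with a mean above 5 TPM in a compared group. Fold changes are given as differences of log2(TPM + 1), which understate the change of low genes. Panx1 stayed under 5 TPM in every group and was read from the same fit with the limit at 1 TPM. The 4 other genes of the set were tested in every comparison.

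None of them was called between sham, PTE- and PTE+ in either hemisphere. In the ipsilateral cortex 1.62% of all tested genes were called for CCI against sham, 1.54% for PTE- against sham, 1.56% for PTE+ against sham and 0.573% for PTE+ against PTE-. In the contralateral cortex these shares were 4.05%, 3.76%, 1.97% and 2.79%. At a Benjamini-Hochberg adjusted p under 0.05, 0 genes of the tables passed in these limma fits, while 60 to 428 genes per comparison were called without adjustment. Over the 4 genes in these 8 comparisons, the smallest unadjusted limma p was 0.068. Without mouse 9_14 the number of called genes rose from 169 to 399 for ipsilateral CCI against sham, from 161 to 416 for PTE- against sham and from 60 to 197 for PTE+ against PTE-, and 0 of the 4 genes were called there either. The Gjb2 difference of CCI from sham was then 0.48 and that of Panx1 between PTE+ and PTE- 0.22, beside 0.51 and 0.40 with that mouse. Under all the alternatives run, the adjusted p of the 5 genes in comparisons of groups or hemispheres lay between 0.311 and 1.

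**Figure D2:**
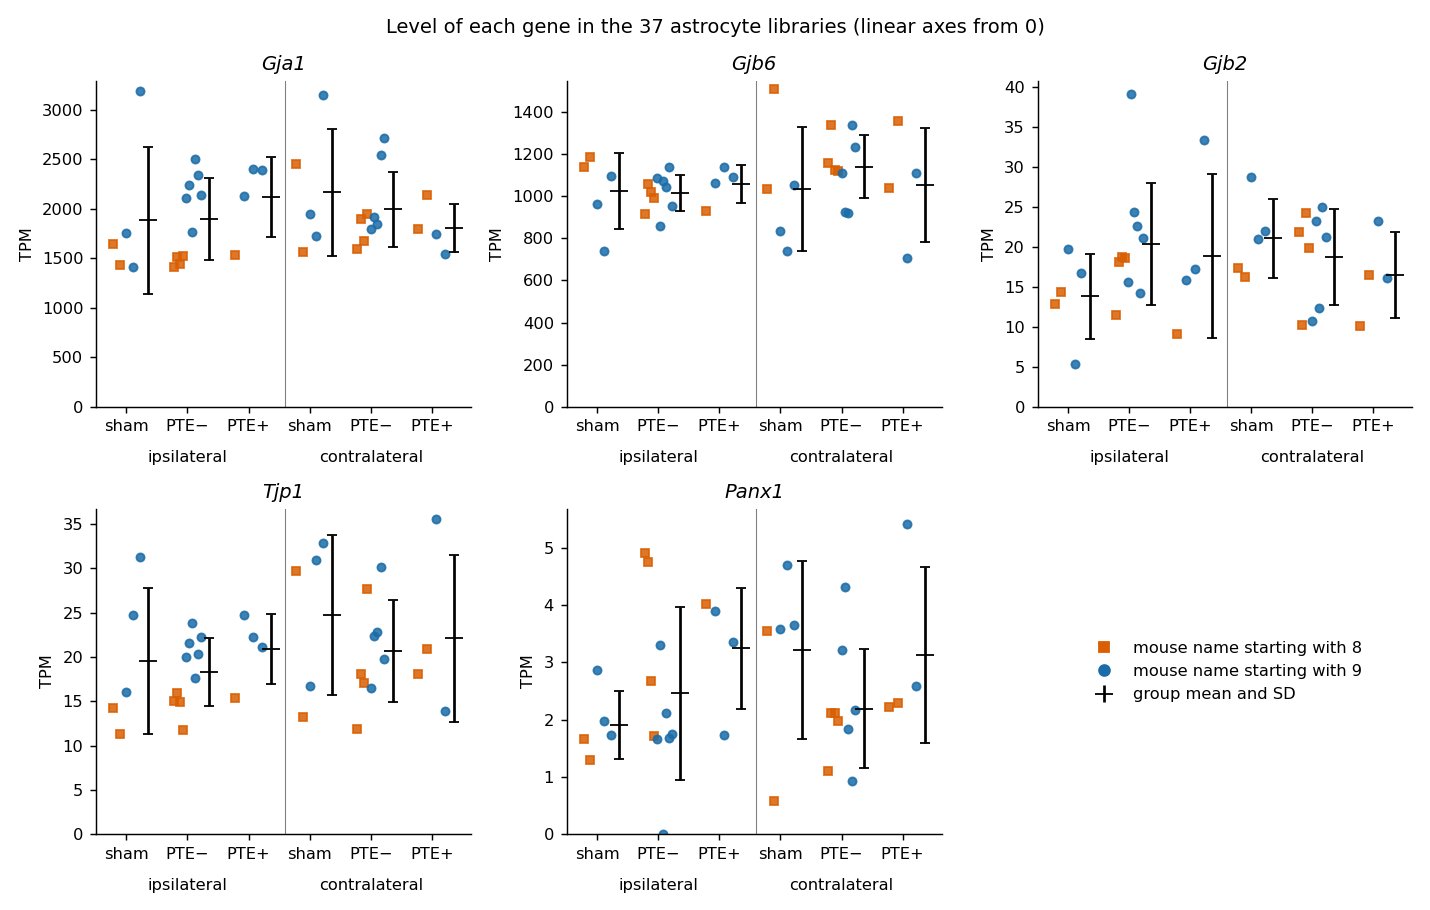
Level in TPM on linear axes from 0 of each gene in each library, by group and hemisphere, with squares for mouse names starting with 8, circles for names starting with 9, and the group mean and SD in black. The groups overlap for each of the 5 genes, and the ipsilateral squares lie below most circles for Gja1 and Tjp1.

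Gja1, the main astrocyte connexin, did not differ after injury beyond the spread between mice. In the ipsilateral cortex the sham libraries measured 1410, 1428, 1641, 1752 and 3187 TPM. The PTE- libraries ran from 1412 to 2504 TPM with a median of 1934, and the PTE+ libraries measured 1537, 2130, 2390 and 2398 TPM. The 3 groups overlapped, and the highest and the lowest ipsilateral library were both sham. The difference of CCI from sham was 0.10 (95% interval -0.27 to 0.47, exact permutation p = 0.603), and that of PTE+ from PTE- was 0.16 (-0.21 to 0.54, exact p = 0.372). For PTE+ against sham it was 0.22 (SE 0.24). Without sham mouse 9_11, the library at 3187 TPM, this last difference was 0.42 and called (limma p = 0.022, adjusted p = 0.493).

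In the contralateral cortex the order of the Gja1 means was turned, from 2167 TPM ± 642 (SD, n = 5) in sham over 1993 ± 380 (n = 9) in PTE- to 1804 ± 246 (n = 4) in PTE+, although PTE- against sham turned from -0.095 to 0.024 when each library was centred on its median. The single libraries overlapped, with 1566 to 3148 TPM in sham, 1594 to 2711 in PTE- and 1541 to 2133 in PTE+. CCI differed from sham by -0.14 (-0.45 to 0.17, exact p = 0.395). PTE+ differed from PTE- by -0.13 (-0.44 to 0.18, exact p = 0.394).

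Gjb6, the connexin that shares astrocyte gap junctions with connexin 43, differed by little between ipsilateral groups. Sham libraries measured 742, 964, 1097, 1138 and 1184 TPM, and PTE+ libraries 930, 1064, 1094 and 1139 TPM. The PTE- libraries ran from 859 to 1139 TPM with a median of 1032. All PTE- and PTE+ libraries lay inside the range of the sham group. The difference of CCI from sham was 0.017 (-0.18 to 0.21), which leaves folds from 0.884 to 1.16 within its 95% interval, and that of PTE+ from PTE- was 0.059 (-0.12 to 0.24). Centred on the median of each library, these differences turned to -0.011 and -0.019.

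Contralateral Gjb6 spread more, from 741 to 1508 TPM in sham, 922 to 1339 TPM in PTE- and 705 to 1358 TPM in PTE+. The PTE+ group held both the highest and the lowest of the 13 contralateral CCI libraries. Differences were 0.13 (-0.19 to 0.44) for CCI against sham and -0.14 (-0.47 to 0.19) for PTE+ against PTE-. For PTE- against sham the difference was 0.17 (SE 0.15). Without sham mouse 8_16, the library at 1508 TPM, it was 0.32 and called (limma p = 0.028, adjusted p = 0.568).

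Gjb2 (connexin 26), a connexin of meninges and of a share of astrocytes, had the largest log2 difference of the 5 genes between ipsilateral CCI and sham. Sham libraries measured 5.41, 12.88, 14.39, 16.70 and 19.72 TPM. PTE- libraries ran from 11.48 to 39.11 TPM with a median of 18.7, and PTE+ libraries measured 9.10, 15.82, 17.28 and 33.39 TPM. Of the 14 injured mice 11 lay above the sham median and 5 above every sham mouse, so the groups overlapped. The difference of CCI from sham was 0.51 (-0.08 to 1.10, exact p = 0.096), a fold of 1.43, and did not pass the test. That of PTE- from sham was 0.56 (-0.05 to 1.17, exact p = 0.070), that of PTE+ from sham 0.39 (-0.45 to 1.23, exact p = 0.429) and that of PTE+ from PTE- was -0.17 (-0.84 to 0.49, exact p = 0.598).

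The call for Gjb2 turned on single libraries, and only removals that led to a call are given here. Sham mouse 9_10 had the lowest ipsilateral sham value, 5.41 TPM, beside 12.88 to 19.72 TPM in the other sham libraries. Leaving out that mouse raises the sham mean and so lowers the differences from sham, and those values are not given. Without sham mouse 9_9 the differences were 0.66 for CCI against sham (limma p = 0.044) and 0.71 for PTE- against sham (limma p = 0.036), and without PTE+ mouse 8_10 the first was 0.59 (limma p = 0.042), so these were called. With quantile normalization PTE- against sham was 0.61 and called (limma p = 0.044, adjusted p = 0.999). The summed meningeal and fibroblast markers, whose cells also make connexin 26, ranged from 184 to 634 TPM in ipsilateral sham, 259 to 650 TPM in PTE- and 357 to 499 TPM in PTE+. None of the 10 tested markers of that list was called for CCI against sham, and their part in the Gjb2 levels was not tested.

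In the contralateral cortex the Gjb2 means fell in the order 21.1 ± 4.95 TPM (SD, n = 5) in sham, 18.8 ± 5.96 (n = 9) in PTE- and 16.5 ± 5.37 (n = 4) in PTE+, with neighbours that did not differ beyond their spread. Sham libraries measured 16.23, 17.34, 21.04, 22.05 and 28.81 TPM, and PTE+ libraries 10.14, 16.15, 16.44 and 23.28 TPM. PTE- libraries ran from 10.26 to 24.99 TPM with a median of 21.2. CCI differed from sham by -0.25 (-0.70 to 0.20, exact p = 0.291), with 5 of 13 injured mice below every sham mouse. PTE+ differed from sham by -0.36 (exact p = 0.230). Without PTE+ mouse 9_17 that difference was -0.54 and called (limma p = 0.049, adjusted p = 0.900).

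Tjp1 (ZO-1), the scaffold of tight junctions and gap junction plaques, did not pass the test in any of these comparisons either. Ipsilateral libraries measured 11.35, 14.22, 16.07, 24.68 and 31.25 TPM in sham and 15.37, 21.08, 22.25 and 24.73 TPM in PTE+, and ran from 11.82 to 23.83 TPM with a median of 18.8 in PTE-. The injured mice lay inside the sham range. CCI differed from sham by 0.030 (-0.40 to 0.46, exact p = 0.884) and PTE+ from PTE- by 0.18 (-0.25 to 0.62, exact p = 0.304). Contralateral levels were 13.21 to 32.85 TPM in sham, 11.89 to 30.15 TPM in PTE- and 13.91 to 35.49 TPM in PTE+. There CCI differed from sham by -0.19 (-0.66 to 0.28) and PTE+ from PTE- by 0.055 (-0.46 to 0.57), which turned to -0.0053 with centring on the library median.

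Panx1, the ATP release channel, was near the limit of what these libraries hold, and TPM do not show how many reads stood behind it. Ipsilateral sham libraries measured 1.30, 1.66, 1.73, 1.97 and 2.87 TPM and PTE+ libraries 1.73, 3.35, 3.90 and 4.02 TPM. PTE- libraries ran from 0 to 4.90 TPM with a median of 1.94, where the 0 was the library of mouse 9_14. Of the 4 PTE+ mice 3 lay above every sham mouse, and the fourth, mouse 9_18, at the sham median. PTE+ differed from sham by 0.53 (-0.04 to 1.10, exact p = 0.063), a fold of 1.45. Without mouse 9_18 it was 0.73 (limma p = 0.019, adjusted p = 1) and without sham mouse 9_9 it was 0.64 (limma p = 0.040, adjusted p = 1).

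PTE+ differed from PTE- in ipsilateral Panx1 by 0.40 (-0.41 to 1.22, exact p = 0.338). In the contralateral cortex the libraries measured 0.58, 3.55, 3.59, 3.65 and 4.70 TPM in sham, 0.93 to 4.31 TPM with a median of 2.11 in PTE-, and 2.23, 2.30, 2.58 and 5.41 TPM in PTE+. All 4 PTE+ mice lay above the PTE- median, and the difference was 0.37 (-0.20 to 0.94, exact p = 0.189). CCI differed from sham by -0.23 (-0.80 to 0.35), and 1 sham library carried much of the spread. Without sham mouse 8_16 (0.58 TPM) the difference was -0.55 for CCI and -0.66 for PTE- against sham, both past the threshold (limma p = 0.035 and 0.015, adjusted p = 0.614 and 0.575). The median difference of all tested genes also moved between the group comparisons. It was 0.12 for ipsilateral PTE+ against PTE-, 0.085 for ipsilateral PTE+ against sham, -0.090 for contralateral PTE- against sham and -0.071 for contralateral CCI against sham, and within 0.05 of 0 in the other 4. Relative to it, contralateral Gja1 differed by -0.0052 for PTE- against sham and by -0.065 for CCI against sham. In ipsilateral PTE+ against PTE- the differences relative to the median were 0.048 for Gja1, -0.058 for Gjb6, -0.29 for Gjb2, 0.068 for Tjp1 and, from its own fit, 0.27 for Panx1.

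**Figure D3:**
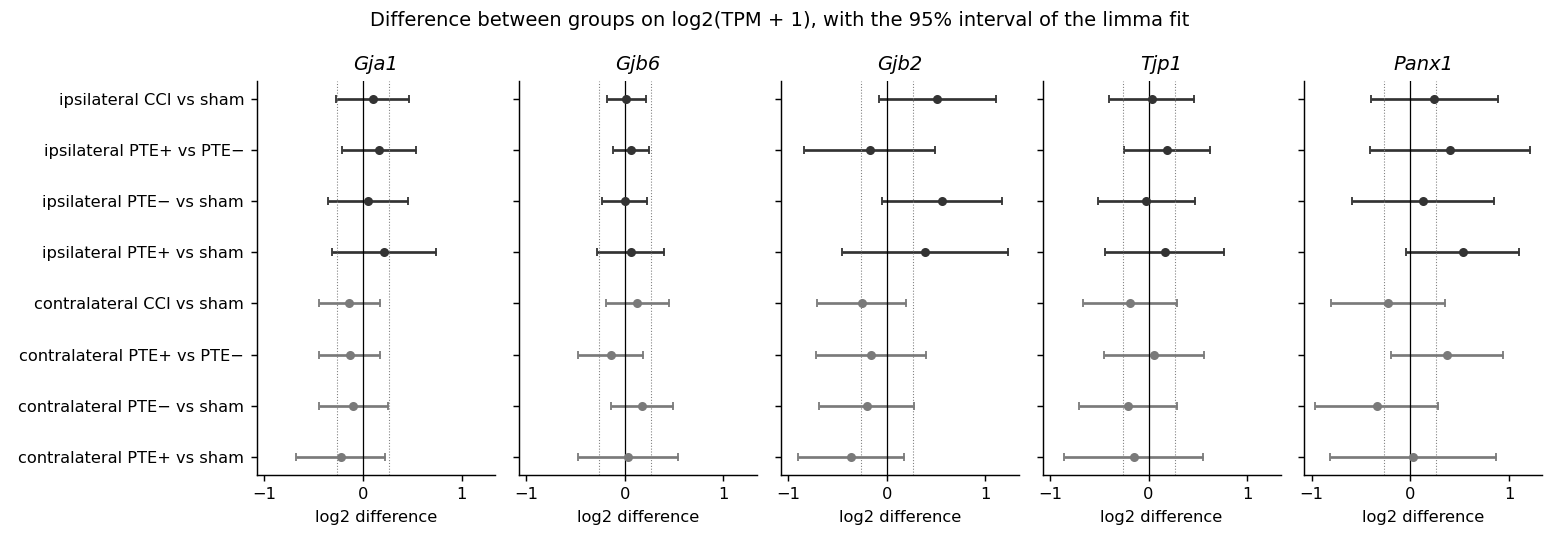
Difference of log2(TPM + 1) between groups for each gene (point) with its 95% interval (bar) from limma, with dotted lines at a fold of 1.2 either way. Each interval crosses 0, including those of Gjb2 for ipsilateral PTE- against sham (-0.05 to 1.17) and CCI against sham (-0.08 to 1.10) and of Panx1 for ipsilateral PTE+ against sham (-0.04 to 1.10).

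The hemispheres were compared in all 37 libraries together, and within the 17 mice that gave both. In sham mice Gjb2 was lower on the ipsilateral side, that of the craniectomy, in 5 of 5 animals. Electrodes were placed on both sides of the midline, so the contralateral sham cortex was not intact either. The ipsilateral and contralateral values were 12.88 and 17.34 TPM in mouse 8_15, 14.39 and 16.23 TPM in mouse 8_16, 19.72 and 28.81 TPM in mouse 9_9, 5.41 and 21.04 TPM in mouse 9_10, and 16.70 and 22.05 TPM in mouse 9_11. Mouse 9_10 had the widest gap, and the groups of 5 overlapped. The limma difference was -0.65 (-1.30 to -0.0028, p = 0.049, adjusted p = 1), a fold of 0.637, and Gjb2 was the 1 called gene of the 4 tested, against 1.15% of all genes. The exact test over the 5 mice gave p = 0.0625, the smallest it can give.

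With the mouse as a fixed block the limma p of this Gjb2 difference was 0.017 (adjusted p = 0.462), and without mouse 9_10 the difference was -0.37 and not called. It was also not called with quantile normalization (-0.54), median centring (-0.53) or array weights , or without sham mouse 8_15 (limma p = 0.060), 9_9 (0.062) or 9_11 (0.057) or PTE+ mouse 8_17 (0.053), 9_17 (0.051) or 9_18 (0.056). The summed meningeal and fibroblast markers were 184 to 634 TPM (median 345) in ipsilateral and 226 to 841 TPM (median 467) in contralateral sham, and 1 of 10 tested markers was called lower on the ipsilateral side. Their part in the Gjb2 difference was not tested.

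Tjp1 was also lower on the ipsilateral side in 5 of 5 sham mice, by a mean of 0.33 on the log2 scale, with an exact p of 0.0625, and was not called in limma (p = 0.231). Gja1 was lower in 4 of 5 sham mice (exact p = 0.125) and Panx1 in 4 of 5 (exact p = 0.188). Gjb6 was higher in 4 of 5, with a mean difference of 0.010 (exact p = 0.938) that turned to -0.055 with quantile normalization. Most genes leaned the same way, with a median limma difference of -0.091 over all tested genes between the hemispheres of sham mice. Of the 125 called genes 114 were lower ipsilaterally. Relative to that median, Gjb2 differed by -0.56, Tjp1 by -0.24, Gja1 by -0.14, Gjb6 by 0.10 and Panx1, from its own fit, by -0.34.

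In injured mice Gjb2 was higher ipsilaterally in 5 of 12 mice and lower in 7. The CCI effect on Gjb2 differed between hemispheres by 0.76 (-0.02 to 1.54, limma p = 0.056), which did not pass the test. The same difference over the within-mouse values was 0.66 (exact p = 0.060). It was 0.66 and called with the mouse as a random block (limma p = 0.021, adjusted p = 0.779), and 0.59 and not called with the mouse as a fixed block (limma p = 0.070). It was called without sham mouse 8_16 (0.88), PTE+ mouse 8_10 (0.80) or PTE+ mouse 9_17 (0.86), and only removals that led to a call are given. Sham mouse 9_10 had the widest gap between hemispheres, at 5.41 and 21.04 TPM. Its removal made the sham difference smaller, as given above, and so lowers this CCI difference, whose value without that mouse is not given. None of the 4 tested genes was called, against 1.05% of all genes, and 111 of these 114 called genes were higher. The median of all tested genes was 0.068 for this difference, and relative to it Gjb2 differed by 0.69.

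Gjb6 was lower on the ipsilateral side in 8 of 9 PTE- mice, by a mean of 0.17 on the log2 scale (SD 0.18). The values ran from 859 to 1139 TPM on the injured side and 922 to 1339 TPM on the other, and the exact test over the 9 mice gave p = 0.031. The limma difference over all libraries was -0.16 (-0.39 to 0.07, p = 0.157), a fold of 0.894, and 0 of the 4 genes were called against 2.71% of all genes. With the mouse as a fixed block the limma p was 0.036 (adjusted p = 0.522), but the fold stayed short of 1.2. The exception among the 9 was mouse 9_15, with 1044 TPM ipsilaterally and 922 TPM contralaterally.

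In the 3 PTE+ mice with both hemispheres, Gjb6 measured 930 and 1040 TPM in mouse 8_10, 1064 and 705 TPM in mouse 9_17, and 1139 and 1112 TPM in mouse 9_18, the ipsilateral value first. It was thus higher on the injured side in 2 of 3, and 0 of the 4 genes were called against 0.552% of all genes. The PTE+ effect on Gjb6 differed between hemispheres by 0.20 (-0.22 to 0.62, limma p = 0.336), or by 0.33 over within-mouse values (exact p = 0.055). With the mouse as a fixed block it was 0.33 and called (limma p = 0.044, adjusted p = 0.999), and with the mouse as a random block 0.27 and not called (limma p = 0.056). Of all genes 0.11% were called for this difference, and 0 of the 4 genes of the set without the block.

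**Figure D4:**
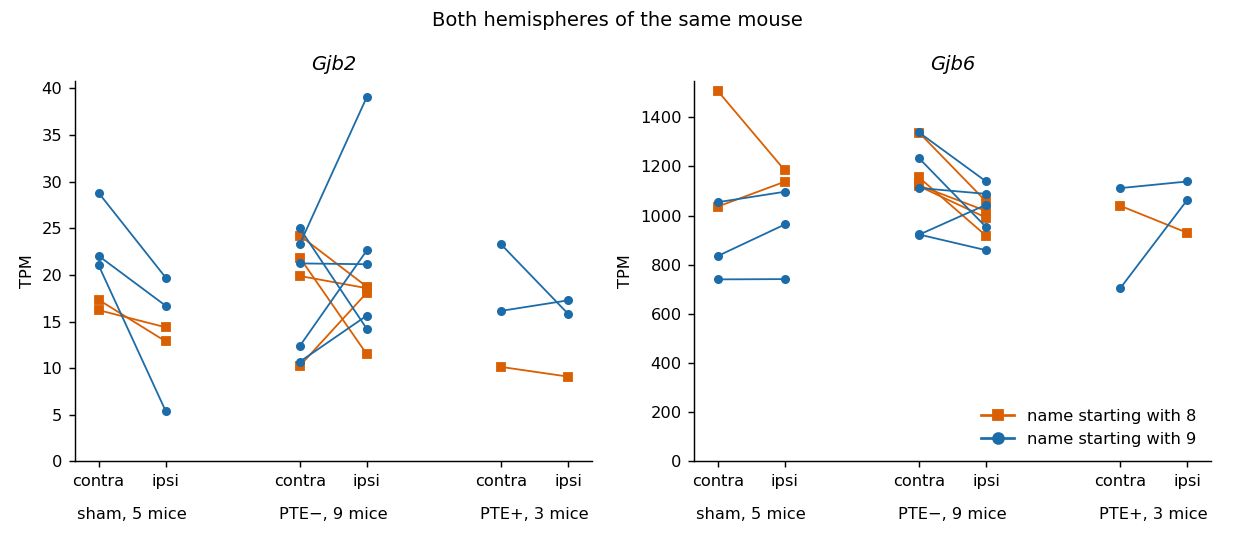
Gjb2 (left) and Gjb6 (right) in TPM in both hemispheres of the same mouse, on linear axes from 0, with a line per mouse, squares for mouse names starting with 8 and circles for names starting with 9. Gjb2 falls from the contralateral to the ipsilateral side in 5 of 5 sham mice, and Gjb6 in 8 of 9 PTE- mice.

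A split that the groups of the study do not explain ran through Gja1 and Tjp1. Names of the mice start with either 8 or 9, a digit whose meaning was not given in the sources used here. Each group held both kinds, in the ipsilateral cortex 2 and 3 sham, 4 and 6 PTE- and 1 and 3 PTE+ mice with names starting with 8 and 9. The comparison was chosen after the values had been seen, with the 3 groups as a covariate.

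Ipsilateral Gja1 ran from 1412 to 1641 TPM (median 1509) in the 7 mice with an 8 and from 1410 to 3187 TPM (median 2190) in the 12 with a 9. Among injured mice the ranges did not meet, with 1412 to 1537 TPM in the 5 mice with an 8 and 1762 to 2504 TPM in the 9 with a 9. Among sham mice they overlapped, since mouse 9_10 had 1410 TPM. The median of all tested genes was 0.11 in this comparison, and 0.12 in the contralateral cortex. The Gja1 difference was 0.52 (SE 0.12, or 0.41 relative to that median, limma adjusted p = 0.021), a fold of 1.43, and the exact permutation within groups gave p = 0.000714.

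Ipsilateral Tjp1 was 11.35 to 15.99 TPM in the 7 mice with an 8 and 16.07 to 31.25 TPM in the 12 with a 9, with no overlap. The difference was 0.60 (SE 0.13, or 0.49 relative to the median of all genes, limma adjusted p = 0.019), a fold of 1.51, and the exact p of 0.000119 was the smallest that the 8400 arrangements can give. In all, 23.7% of tested genes were called in this comparison, so a call for 2 of the 4 tested genes stands against a high background. Without PTE- mouse 9_14 the called genes rose from 2520 to 4088, and the differences were 0.55 for Gja1 and 0.58 for Tjp1. Gjb6 did not follow Gja1, with a difference of -0.029 (-0.21 to 0.16), and Gjb2 differed by 0.36 (exact p = 0.194) or, without sham mouse 9_10, by 0.52 and with a call (limma p = 0.026, adjusted p = 0.119). The ratio of Gja1 to Gjb6 was accordingly 1.21 to 1.65 against 1.64 to 2.90, with a log2 difference of 0.54 (exact p = 0.000119).

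The adjusted p of Gja1 rose to 0.060 with quantile normalization and 0.058 with median centring, and that of Tjp1 to 0.070 with either. Gjb6 differed by -0.22 after median centring, with a fold short of 1.2. Marker genes were also called by the same digit, where 18.9% of all tested genes were called higher and 4.8% lower. Called higher in the mice with a 9 were 7 of 13 astrocyte, 3 of 10 mural cell and 2 of 7 oligodendrocyte precursor markers. Called lower were 7 of 10 oligodendrocyte, 6 of 9 neuron, 3 of 11 endothelial, 2 of 5 ependymal and 1 of 11 microglia markers, and 0 of 10 meningeal markers were called. The summed oligodendrocyte markers ranged from 1501 to 4078 TPM (median 1958) in mice with an 8 and from 527 to 4491 TPM (median 1202) in those with a 9. Their part in the difference was not tested.

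In the contralateral cortex the digit went with other genes of the set. Gjb6 was lower in the 10 mice with a 9 (705 to 1339 TPM, median 989) than in the 8 with an 8 (1037 to 1508 TPM, median 1140), by 0.29 on the log2 scale (limma p = 0.028, adjusted p = 0.185, exact p = 0.039). This was a call for 1 of 4 tested genes where 18.7% of all genes were called. It was not called without sham mouse 8_16 (-0.22), sham mouse 9_10 (-0.26), PTE+ mouse 8_17 (-0.25) or PTE+ mouse 9_17 (-0.23). Panx1 was higher by 0.49 (limma p = 0.046, exact p = 0.055). Gja1 and Tjp1 differed by 0.12 (exact p = 0.406) and 0.28 (exact p = 0.228), and the ratio of Gja1 to Gjb6 by 0.42 (exact p = 0.0099). The difference between hemispheres in this split was not tested.

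With the digit as a covariate, no call changed for the 4 tested genes in the group comparisons. Within the mice with a 9, ipsilateral Gjb2 differed between CCI and sham by 0.75 (exact p = 0.095), and within those with an 8 by 0.096 (exact p = 0.857). Gjb6 was lower in the 5 injured mice with an 8 (918 to 1058 TPM) than in their 2 sham mice (1138 and 1184 TPM), and the exact p of 0.048 is the smallest possible there. Among mice with a 9 the Gjb6 difference was 0.18 (exact p = 0.123). Ipsilateral Panx1 of PTE+ against PTE- could be tested within the mice with a 9 only, as a single PTE+ mouse has an 8. It differed by 0.61 (exact p = 0.190), a value that includes PTE- mouse 9_14, where Panx1 was listed at 0. The difference within this digit without that mouse is not given.

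**Figure D5:**
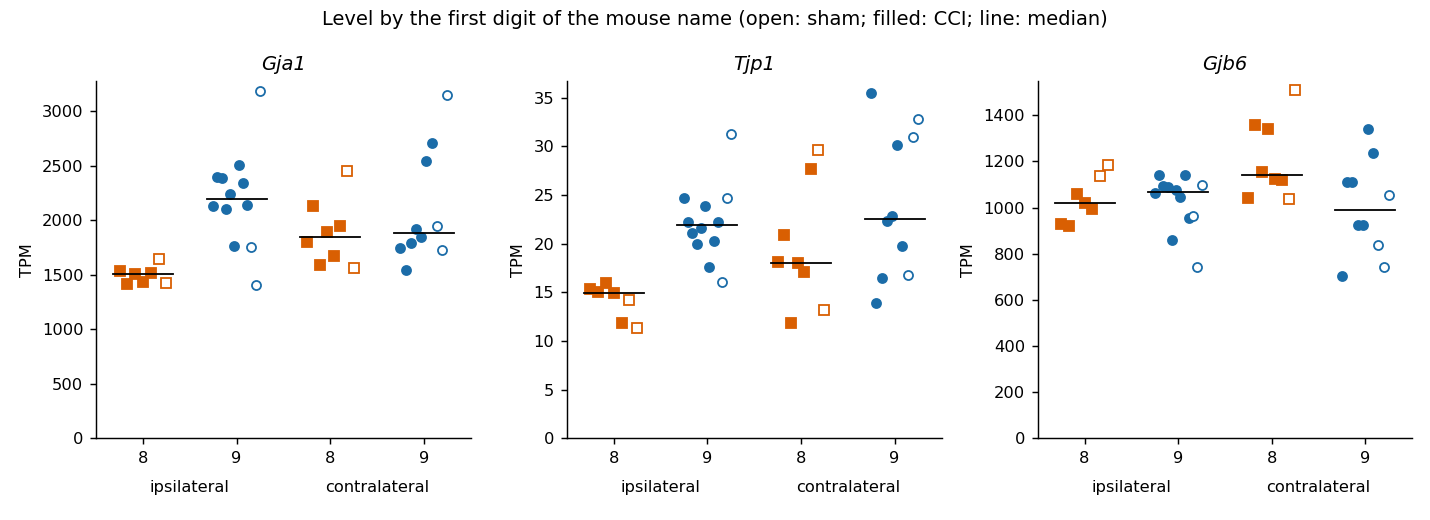
Gja1, Tjp1 and Gjb6 in TPM, on linear axes from 0, by hemisphere and by the first digit of the mouse name, with open marks for sham, filled marks for CCI mice and a line at the median. Ipsilateral Tjp1 does not overlap between the digits (11.35 to 15.99 against 16.07 to 31.25 TPM), ipsilateral Gja1 overlaps through the sham mouse at 1410 TPM, and ipsilateral Gjb6 overlaps throughout.

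None of these other connexins or pannexins tested was called in any of these comparisons. Gja4 was 0.44 higher in contralateral PTE+ than PTE- astrocytes (-0.09 to 0.97, limma p = 0.101), with 25.02, 45.05, 58.64 and 70.07 TPM in the PTE+ libraries and 26.1 to 61.4 TPM (median 30.7) in PTE-, and the groups overlapped. The summed endothelial markers moved the same way there, at 881 to 2817 TPM in PTE+ and 584 to 1541 TPM in PTE-, and 3 of 11 of them were called higher. Their part in the Gja4 level was not tested. Gja5 stayed under 5 TPM in every group, with 2.995 TPM as its highest group mean, and was not in these limma fits. TPM do not show how many reads stood behind its values, which ran from 0 to 4.87 TPM. Its values were lower on the ipsilateral side in all 3 conditions. It was lower in 5 of 5 sham mice, by a mean of 0.27 on the log2 scale (exact p = 0.0625, the smallest possible), in 7 of 9 PTE- mice, by 0.51 (exact p = 0.039), and in 3 of 3 PTE+ mice, by 0.65 (exact p = 0.250, the smallest possible). The hemisphere difference did not pass a test between CCI and sham mice (exact p = 0.298). The endothelial markers had median differences in the same direction, of -0.40 in sham, -0.42 in PTE- and -0.78 in PTE+, with 1, 0 and 2 of 11 called lower, and their part in the Gja5 levels was not tested.

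Calls among the partners of these proteins stand beside the shares of all tested genes called. These were 0.573% to 1.62% over the ipsilateral group comparisons and 1.97% to 4.05% over the contralateral ones. Connexin 43 partners and regulators (kinases, caveolins, catenins and cytoskeletal proteins that bind or modify it) had 18 tested genes, and 0 were called in the ipsilateral group comparisons. Their median difference for ipsilateral CCI against sham was 0.022, beside -0.013 over all genes. In the contralateral cortex Ccn3, a secreted matrix protein that binds connexin 43, was lower in CCI than sham by 1.22 (limma p = 0.017, adjusted p = 0.978) and in PTE- than sham by 1.53 (limma p = 0.0053, adjusted p = 0.962). It was higher in PTE+ than PTE- by 0.99 (limma p = 0.011, adjusted p = 0.999).

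The Ccn3 levels were 7.33 to 90.37 TPM (median 13.2) in contralateral sham, 2.81 to 11.82 TPM (median 5.90) in PTE- and 6.71 to 23.43 TPM (median 12.7) in PTE+, so the groups overlapped. The comparisons of PTE- with sham and with PTE+ share their PTE- libraries. Of the 12 meningeal and fibroblast markers, Slc47a1 and Mgp are given, each where it was called in the direction of Ccn3. The other markers of the list went both ways, so these do not show a shift of the whole list. Mean levels of Dcn (51.9 against 60.4 TPM), Slc6a13 (26.3 against 37.3 TPM), Lum, Aldh1a2 and Slc22a6 were lower in contralateral PTE+ than PTE-. Those of Islr, Col1a1, Col1a2, Col3a1 and Foxc2 were higher. Slc47a1, a transporter, differed by -1.37 for contralateral CCI against sham, -1.83 for PTE- against sham and 1.49 for PTE+ against PTE-, and Mgp, matrix Gla protein, by -0.96 for PTE- against sham and 0.77 for PTE+ against PTE-. The 12 markers of that list summed to 226 to 841 TPM (median 467) in contralateral sham, 217 to 523 TPM (median 355) in PTE- and 289.1 to 465.8 TPM (median 453) in PTE+, and their part in the Ccn3 levels was not tested. Src, a tyrosine kinase that phosphorylates connexin 43, was higher in contralateral PTE+ (37.8 to 67.2 TPM) than PTE- (9.77 to 61.8 TPM) by 0.84 (limma p = 0.040, adjusted p = 0.999). Between hemispheres, Ccn3 was 1.21 higher on the injured side in PTE- mice (limma p = 0.030, adjusted p = 0.896), although 1 ipsilateral PTE- library had 0 TPM. Slc47a1 was 1.43 higher in that comparison (limma p = 0.012, adjusted p = 0.896). Cav2 (caveolin 2) was 0.53 lower on the ipsilateral side in sham mice (limma p = 0.049, adjusted p = 0.9997).

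Of 14 tested tight junction genes and ZO-1 partners, 1 was called in a group comparison, where 0.573% to 4.05% of all tested genes were called. Jam3, an adhesion molecule of junctions, was lower in contralateral CCI than sham by 0.27 (limma p = 0.036, adjusted p = 0.978), with 44.6 to 92.7 TPM in PTE- and 61.3 to 66.9 TPM in PTE+ against 68.4 to 88.2 TPM in sham. F11r (JAM-A) was 0.70 lower on the injured side in PTE- mice (limma p = 0.042, adjusted p = 0.896). The purinergic list, enzymes and receptors that handle the ATP released through pannexin 1, had 8 or 9 tested genes and 0 calls in group and hemisphere comparisons. At most 4.05% of all tested genes were called in any of those comparisons.

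By the digit of the mouse name, 6 of the 18 connexin 43 partners, 4 of the 14 tight junction genes and 2 of the 8 purinergic genes were called higher in ipsilateral mice with a 9, and 0 lower, where 18.9% of all tested genes were called higher and 4.8% lower. The genes with the smallest p were Cldn12, a claudin (0.76, adjusted p = 0.013), Csnk1d, a casein kinase that phosphorylates connexin 43 (0.45, adjusted p = 0.025), Ctnna1, alpha-catenin (0.52, adjusted p = 0.026), Entpd2, an enzyme that degrades ATP (0.65, adjusted p = 0.034), Magi2, a scaffold (0.51, adjusted p = 0.034), and Nedd4, a ubiquitin ligase of connexin 43 (0.40, adjusted p = 0.039). The medians of the 3 lists were 0.21, 0.22 and 0.24, beside 0.11 over all genes. Contralaterally 9 of 18, 2 of 14 and 3 of 9 were called higher and 1 purinergic gene lower, where 16.9% of all tested genes were called higher and 1.86% lower.

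Of the 13 astrocyte markers 2 were called for ipsilateral CCI against sham, where 1.62% of all tested genes were called. Gfap, the intermediate filament of reactive astrocytes, was higher in ipsilateral CCI than sham by 1.18 (limma p = 0.00052, adjusted p = 0.909). Aqp4, the water channel of astrocyte endfeet, was higher by 0.39 (limma p = 0.034, adjusted p = 0.9997). Of 10 tested oligodendrocyte markers 5 were called lower in the same comparison, with summed levels of 527 to 4491 TPM in sham, 774 to 2279 TPM in PTE- and 1196 to 2352 TPM in PTE+, and 3 of 5 ependymal markers were called higher. The limma adjusted p of each of these called oligodendrocyte and ependymal markers was 0.9997.

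The levels of the genes of the set varied with different partners over the 37 libraries. The correlations given are Pearson's r of log2(TPM + 1) after taking off the mean of each of the 6 groups, over libraries that include 17 pairs from the same mouse and that all share the same total of TPM. The first digit of the mouse name was not taken off, so the split of ipsilateral Gja1 and Tjp1 by that digit remains in these correlations. Gja1 and Tjp1 had r = 0.61, Gjb6 and Panx1 r = -0.59, and Gja1 and Gjb6 r = 0.21. The neighbours Gjb6 and Gjb2 had r = -0.016.

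Among 10857 genes, those most like Gja1 were Elovl5, a fatty acid elongase (r = 0.94), Lamp2, a lysosomal membrane protein (0.93), and Ednrb, the endothelin B receptor (0.92). Those most like Gjb6 were Selenos (0.86) and Emc7 (0.85), proteins of the endoplasmic reticulum, and Cd302, a lectin receptor (0.83). Gjb2 was followed less closely, by Dtx4, a ubiquitin ligase (0.75), Rhob, a small GTPase (0.71), and Ddr1, a collagen receptor (0.71).

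Panx1 was followed by Faah, the hydrolase of anandamide (0.81), Tmem179 (0.78) and Tacc2 (0.76), and without the library of mouse 9_14, where Panx1 was listed at 0, these were 0.75, 0.68 and 0.64. Tjp1 was followed by Tmem245 (0.87), Acbd3, a Golgi protein (0.86), and Aff1, a factor of transcription elongation (0.85). With the summed markers of other cells, Gjb2 had r = 0.37 for the meningeal, 0.55 for the oligodendrocyte precursor and -0.56 for the endothelial list. Gja1 had r = -0.61 for the oligodendrocyte, -0.58 for the endothelial, -0.53 for the microglia and -0.50 for the neuron list, and 0.36 for the mural list. Gjb6 had r = -0.62 for the microglia, -0.47 for the precursor, -0.45 for the neuron and -0.44 for the oligodendrocyte list, and 0.22 for the mural list. Panx1 had r = 0.51 for the neuron, 0.42 for the microglia and -0.39 for the mural list.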

How the data were processed

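The authors trimmed reads of SMART-Seq V4 libraries with Trim Galore 0.6.4, mapped them to mm10 with Bowtie2 2.4.1 and deposited TPM per gene as estimated by RSEM 1.2.28, in 1 table per hemisphere. The annotation release behind the tables was not given in the sources used here. The authors compared groups with DESeq2 1.36.0 on counts, which were not used here. They state that 1 PTE+ mouse was left out for a low correlation value and 1 PTE- mouse for lack of data. The labels still name 20 mice, and single hemispheres are absent. PTE+ mouse 8_17 has a contralateral library only, and PTE+ mouse 9_19 and PTE- mouse 9_14 have an ipsilateral library only. TPM keep no read depth, so depth per library is unknown.

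Symbols and positions came from GENCODE on GRCm38, which named 21856 of the 21975 identifiers, and promoter sequences from RefSeq on GRCm38.p6, where all 5 genes had an entry. Groups were compared on log2(TPM + 1) with limma 3.58.1 in R 4.3.3, with a variance trend and Benjamini-Hochberg adjustment over all tested genes. Each fit held the libraries of the compared groups, and the hemispheres were compared in 1 fit of all 37 libraries without the mouse. Fits were checked on simulated data. Single genes were also tested by two-sided exact permutation of the libraries (126 to 11628 splits, and fewer within mice of 1 name digit), by exact sign flips of the differences within mice, and by exact permutation within groups for the mouse name. The hemispheres were paired through the name of the mouse in the labels: deviations from group means of the same mouse had a median r of 0.40 (0.041 to 0.68, above 0.1 in 16 of 17 mice) over 10857 genes, against -0.073 for different mice of a group.

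The alternatives were a pseudocount of 0.1, a filter at 1 TPM or none, quantile normalization, median centring, array weights, all 3 groups in 1 fit, no fold threshold, the first digit of the mouse name as covariate, the mouse as a block and single mice left out. The 5 genes and all gene lists were chosen with earlier results of these data known, and the comparison by the first digit of the mouse name after the values had been seen. Named are the 5 genes, other connexins and pannexins above 1 TPM in a group, up to 6 called genes of the partner lists per comparison by smallest p, and the 3 genes with the highest correlation to each. Of the other connexins, 1 is not reported here. Markers are given as sums over the lists for astrocytes, oligodendrocytes and their precursors, neurons, microglia, endothelial, mural, meningeal and ependymal cells. Tables and exact tests were made in Python 3.11.15 (numpy 2.4.6, pandas 2.3.3 and the statistics of scipy 1.17.1) and figures with matplotlib 3.10.9.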

Additional observations from a re-analysis of the deposited data

Results flagged for a closer look

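Of 66 groups examined for the 5 genes and the 6 other connexins and pannexins above 1 TPM, 7 held a library farther from the rest than Dixon's 95% critical value allows, where chance flags about 1 in 20 groups.

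Gja1 had its highest ipsilateral sham value in mouse 9_11, at 3187 TPM, with 1410 to 1752 TPM in the other 4. The contralateral library of that mouse was also the highest of its group, at 3148 TPM. Panx1 stood out in 3 groups. It was highest in contralateral PTE+ mouse 9_17, at 5.41 TPM beside 2.23 to 2.58 TPM, lowest in contralateral sham mouse 8_16, at 0.58 TPM beside 3.55 to 4.70 TPM, and listed at 0 in the ipsilateral library of PTE- mouse 9_14, beside 1.66 to 4.90 TPM. That library, with 10727 genes above 0, also had the lowest ipsilateral PTE- value of Gjc3, at 0.17 TPM beside 3.13 to 6.17 TPM. Gjc3 was lowest in contralateral sham mouse 8_15, at 3.49 TPM beside 5.15 to 5.89 TPM. Gjb1 was highest in ipsilateral PTE+ mouse 8_10, at 4.81 TPM beside 2.21 to 2.55 TPM.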

How the results depend on the processing

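The calls and directions given for these genes were repeated with another pseudocount, other filters, quantile normalization, median centring, array weights, all 3 groups in 1 fit, no fold threshold, the first digit of the mouse name as covariate, the mouse as a block, and each sham and PTE+ mouse and PTE- mouse 9_14 left out. Of the differences of single genes 1134 kept their direction and their side of the threshold, 26 passed it only in the alternative, 14 lost it and 74 turned sign. The reversed values reached at most 0.40 in size, and their smallest limma p was 0.241. The causes of these moves were not tested. TPM keep no depth, so counting error could not be given, which limits Panx1 most.

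The number of the 4 tested genes called was 0 in each group comparison and 1 in the comparison of hemispheres in sham mice. It moved to 1 with quantile normalization for ipsilateral PTE- against sham (Gjb2) and to 0 with quantile normalization or median centring in the hemispheres of sham mice, where array weights called Tjp1 in place of Gjb2. With array weights it was 1 for ipsilateral PTE+ against sham (Gja1), for contralateral PTE+ against PTE- and for contralateral PTE+ against sham (Gjb2), and 3 for the hemisphere difference of CCI against sham (Gja1, Gjb2 and Tjp1). By the digit of the mouse name array weights gave 3 ipsilaterally and 2 contralaterally, in place of 2 and 1, and a filter at 1 TPM gave 2 contralaterally, with Panx1 added. With the mouse as a fixed replicate block the hemisphere difference of PTE+ against PTE- had 1 call (Gjb6, 0.33), and with the mouse as a random block that of CCI against sham had 1 (Gjb2, 0.66), and the block changed no other call. With single mice left out the number ranged from 0 to 1 for ipsilateral CCI, PTE- and PTE+ against sham, contralateral PTE- and PTE+ against sham, the hemispheres of sham mice, the hemisphere difference of CCI and the contralateral digit, and from 2 to 3 for the ipsilateral digit. Counts of all called genes also moved more than 1.5 times. They were highest with array weights, except for contralateral CCI against sham (without sham mouse 9_9), contralateral PTE- against sham (without sham mouse 8_16) and the hemispheres of PTE- mice (with the mouse as a fixed block). They were 169 as reported and from 138 to 843 in the alternatives for ipsilateral CCI against sham, 161 (144 to 650) for PTE- against sham, 163 (83 to 1221) for PTE+ against sham and 60 (23 to 441) for PTE+ against PTE-. Without PTE- mouse 9_14 the first and the last of these were 399 and 197. Contralaterally they were, in the same order, 428 (231 to 883), 397 (224 to 861), 210 (104 to 1114) and 291 (201 to 828). Between hemispheres they were 125 (58 to 964) in sham, 295 (265 to 648) in PTE- and 60 (15 to 1275) in PTE+, and 114 (51 to 1648) and 12 (8 to 495) for the hemisphere differences of CCI against sham and of PTE+ against PTE-. By the digit of the mouse name they were 2520 (1997 to 4453) ipsilaterally and 1998 (1359 to 2777) contralaterally.

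With median centring the reversed values were Gjb6 -0.011 (ipsilateral CCI against sham), -0.019 (ipsilateral PTE+ against PTE-), -0.0060 (ipsilateral PTE- against sham) and -0.025 (ipsilateral PTE+ against sham), Tjp1 -0.0053 (contralateral PTE+ against PTE-), Gja1 0.024 (contralateral PTE- against sham) and -0.041 (contralateral 9 against 8), Panx1 -0.022 (hemisphere difference of PTE+ against PTE-). With quantile normalization the reversed values were Gja1 -0.035 (ipsilateral PTE- against sham), Gjb6 -0.070 (contralateral PTE+ against sham), -0.055 (hemispheres in sham) and 0.0054 (hemisphere difference of CCI against sham), Panx1 -0.011 (hemispheres in PTE-). With array weights the reversed values were Tjp1 0.10 (ipsilateral PTE- against sham), -0.12 (contralateral PTE+ against PTE-) and 0.18 (hemispheres in PTE+), Gjb2 0.40 (hemisphere difference of PTE+ against PTE-), Panx1 -0.30 (contralateral PTE+ against sham) and -0.071 (hemisphere difference of PTE+ against PTE-), Gjb6 0.051 (ipsilateral 9 against 8). With a pseudocount of 0.1 the reversed values were Panx1 -0.050 (ipsilateral PTE- against sham) and -0.16 (hemispheres in PTE-). With the first digit of the mouse name as covariate the reversed values were Gjb6 -0.017 (contralateral PTE+ against sham). With the mouse as a fixed replicate block the reversed values were Gjb2 -0.19 (hemispheres in PTE+), Panx1 -0.048 (hemispheres in PTE+) and -0.26 (hemisphere difference of PTE+ against PTE-). With the mouse as a random block the reversed values were Gjb2 -0.065 (hemispheres in PTE+), Panx1 -0.13 (hemisphere difference of PTE+ against PTE-).

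With single mice left out, Gjb6 ranged from -0.095 to 0.074 (ipsilateral CCI against sham), -0.11 to 0.057 (ipsilateral PTE- against sham), -0.052 to 0.12 (ipsilateral PTE+ against sham), -0.28 to 0.039 (contralateral PTE+ against PTE-), -0.10 to 0.21 (contralateral PTE+ against sham), -0.039 to 0.10 (hemispheres in sham), -0.15 to 0.17 (hemispheres in PTE+) and -0.085 to 0.023 (ipsilateral 9 against 8). Tjp1 ranged from -0.13 to 0.22 (ipsilateral CCI against sham), -0.18 to 0.16 (ipsilateral PTE- against sham), -0.19 to 0.24 (contralateral PTE+ against PTE-), -0.40 to 0.033 (contralateral PTE+ against sham), -0.24 to 0.14 (hemispheres in PTE+) and -0.090 to 0.29 (hemisphere difference of PTE+ against PTE-). Gjb2 ranged from -0.48 to 0.11 (ipsilateral PTE+ against PTE-), -0.33 to 0.040 (contralateral PTE+ against PTE-), -0.21 to 0.31 (hemispheres in PTE+) and -0.32 to 0.20 (hemisphere difference of PTE+ against PTE-). Gja1 ranged from -0.035 to 0.26 (ipsilateral PTE- against sham), -0.24 to 0.011 (contralateral CCI against sham) and -0.20 to 0.051 (contralateral PTE- against sham). Panx1 ranged from -0.29 to 0.17 (contralateral PTE+ against sham), -0.13 to 0.22 (hemispheres in PTE+) and -0.16 to 0.18 (hemisphere difference of PTE+ against PTE-).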
